A study of Caenorhabditis elegans with 2 samples.

Results

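The 10 genes described here encode ciliary proteins of Caenorhabditis elegans. Of these, 4 encode the kinesin-2 motors (osm-3, kap-1, klp-11 and klp-20) and 6 encode proteins of the ciliary transition zone (tmem-107, mks-1, mksr-1, mksr-2, mks-3 and mks-6). They are 10 of the 19985 protein-coding genes of the annotation. The set was chosen by function and from peak calls in these same data, since tmem-107, kap-1 and osm-3 were known to have peaks on the authors' reproducible list. Those peaks are therefore given as a description, with no test.

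The peaks come from ChIP-seq of CEH-79, a homeobox transcription factor, in 1 group of 2 biological replicates. The worms were of strain OP553, which carries the unc-119(tm4063) mutation on chromosome III and the integrated transgene wgIs553, from which CEH-79 is made with a GFP-FLAG tag at its C terminus. Both replicates were whole young adults of mixed sex, taken 66 hours after synchronization of starved first-stage larvae, and an anti-GFP antibody was used for the precipitation. There was no second strain, tissue or time point, so nothing is compared between conditions. Each tissue of the worm contributed chromatin, and strong binding in a few cells and weak binding in many cannot be told apart. The lists hold no expression values, so tissue markers could not be checked.

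In this worm the only ciliated cells are sensory neurons, whose cilia sit at the tips of dendrites. Intraflagellar transport builds the cilium by carrying cargo along its microtubules, and kinesin-2 motors drive the outward journey. Heterotrimeric kinesin-II, made of the motor subunits KLP-11 and KLP-20 and the accessory subunit KAP-1, works together with the homodimeric motor OSM-3, which alone serves the outer segment of many sensory cilia. At the ciliary base the transition zone acts as a gate, and proteins of the Meckel syndrome (MKS) module lie in its membrane or beside it. Many ciliary genes of the worm are controlled by DAF-19, an RFX transcription factor that binds a promoter element called the X-box.

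A candidate is any entry that the authors passed to their reproducibility analysis, the irreproducible discovery rate. An optimal peak is one that passed it, and the optimal list is the strongest end of the pooled candidates. The pooled input is labelled as holding peaks and background, so a weak candidate may be background and not binding. The lists held 30000 candidates for the pooled replicates, 30000 for replicate 1 and 29624 for replicate 2, in ce11 coordinates. Peaks were ranked by their deposited signal within each list, rank 1 being the strongest, and only ranks are set side by side between lists. Read depth is unknown, since reads per peak were not part of these lists. Pooled signal had a median of 32.6, and the lowest signal of an optimal peak was 86.53, while the next candidate had 86.51. A promoter window ran from 1000 bp upstream to 200 bp downstream of any annotated start of a coding transcript.

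The sequences below lie upstream of a start inside the optimal peaks of kap-1 and osm-3, and are shown because those peaks are the ones of kinesin-2 genes on the reproducible list. They were read from the RefSeq genome of WBcel235, which is ce11. The first is the whole gap between the upstream gene gsp-2 and kap-1 (chrIII:7338766-7338834, plus strand, 69 bp), with the bases from 10 bp before the summit to the end of the gap in capitals. The second runs from the outer edge of the osm-3 peak to an internal start of that gene (chrIV:3799331-3799387, minus strand, 57 bp), with the 20 bases next to the start in capitals.
kap-1: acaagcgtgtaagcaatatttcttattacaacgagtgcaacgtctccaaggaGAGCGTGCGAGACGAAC
osm-3: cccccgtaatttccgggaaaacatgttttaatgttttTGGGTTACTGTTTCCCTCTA

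Of the 10 genes, 3 had an optimal summit in a promoter window, namely tmem-107, kap-1 and osm-3. Over all protein-coding genes the share was 1.48% (296 genes). The 3 genes were part of the choice of the set, so their count is not evidence about ciliary genes. Of the other 7 genes, none had an optimal summit in the promoter or inside the gene.

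Among the kinesin-2 genes, kap-1 had the strongest promoter peak. KAP-1 is the non-motor subunit of kinesin-II. The gene lies on chromosome III (7338835 to 7343667, plus strand), and its optimal peak (7338616 to 7339039) had a pooled signal of 92.8 and rank 451. In replicate 1 the strongest candidate of the window had a signal of 50.3 and rank 704, and in replicate 2 a signal of 51.9 and rank 264. Each of these ranks was inside the strongest 3% of its candidate list, and replicate 2 ranked the site higher than replicate 1. Within the optimal list the peak was 79.7% of the way down from the top.

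The pooled kap-1 summit lay 7 bp upstream of the 5' end of the gene, in the intergenic gap. The summit of replicate 1 lay 33 bp upstream of that end and the summit of replicate 2 lay 64 bp downstream of it, in the 5' UTR of transcript F08F8.3a.1, so that the replicate summits were 97 bp apart. Their intervals overlapped by 331 bp. A second pooled candidate (signal 57.8, rank 2275) overlapped the first and had its summit 199 bp inside the gene, in a coding exon. It ranked 11857 in replicate 1, with the summit at 179 bp, and the matching candidate of replicate 2 ranked 7016, with the summit at 264 bp, in an intron.

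No other gene had a start window holding the kap-1 summit. The neighbour gsp-2, which encodes a protein phosphatase 1 catalytic subunit, is on the same strand and ends 69 bp before kap-1 begins. The optimal peak therefore also covers the 3' end of gsp-2. Whether gsp-2 and kap-1 are transcribed together from 1 promoter was not checked. The nearest short noncoding gene was the snoRNA gene F56C9.12, which lies inside gsp-2 and ends 832 bp before kap-1. No noncoding gene lay within 500 bp of the summit.

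The motor gene osm-3 had an optimal peak inside the gene. It occupies chromosome IV from 3796300 to 3801052 on the minus strand and has 4 annotated transcripts with 4 starts. The optimal peak (3798964 to 3799387) had a pooled signal of 89.3 and rank 504, which is 89% of the way down the optimal list. The signal and rank were 47.01 and 907 in replicate 1, and 43.9 and 527 in replicate 2, with summits 52 bp apart. The summit was 154 bp downstream of the internal start of transcript M02B7.3a.3, in its 5' UTR, and in an intron of the other 3 transcripts. It lay 1876 bp from the 5' end of the gene, so that with that end as the only start osm-3 had no optimal promoter summit.

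The osm-3 gene held more candidates than any other of the 10 genes in the pooled list. With the optimal peak there were 6 pooled summits inside it, at ranks 504, 3767, 4558, 8802, 10287 and 17567. The candidate at rank 4558 (signal 47.8) overlapped the optimal peak, with its summit 81 bp upstream of the internal start. The candidate at rank 3767 (signal 50.6) lay in a coding exon 3299 bp from the 5' end, and candidates near it ranked 4764 in replicate 1 and 7122 in replicate 2. The candidate at rank 17567 lay in the 5' UTR of the longest transcript, where replicate 2 had one at rank 8289. A replicate 1 candidate at rank 5350 had its summit 663 bp from the 5' end of the gene, near the pooled summit of rank 10287 at 682 bp. That replicate 1 summit lay in the 5' UTR of M02B7.3a.1 and M02B7.3a.2 and in a coding exon of M02B7.3b.1. Its interval also overlapped the candidate at rank 17567, whose summit was 318 bp from the 5' end.

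No other gene's start window held the optimal osm-3 summit, and no noncoding gene lay within 500 bp of it. The nearest tRNA, snoRNA or snRNA gene was 114348 bp from the gene. The 5' end of osm-3 overlaps the 3' end of algn-14, a neighbour on the same strand.

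**Figure D1:**
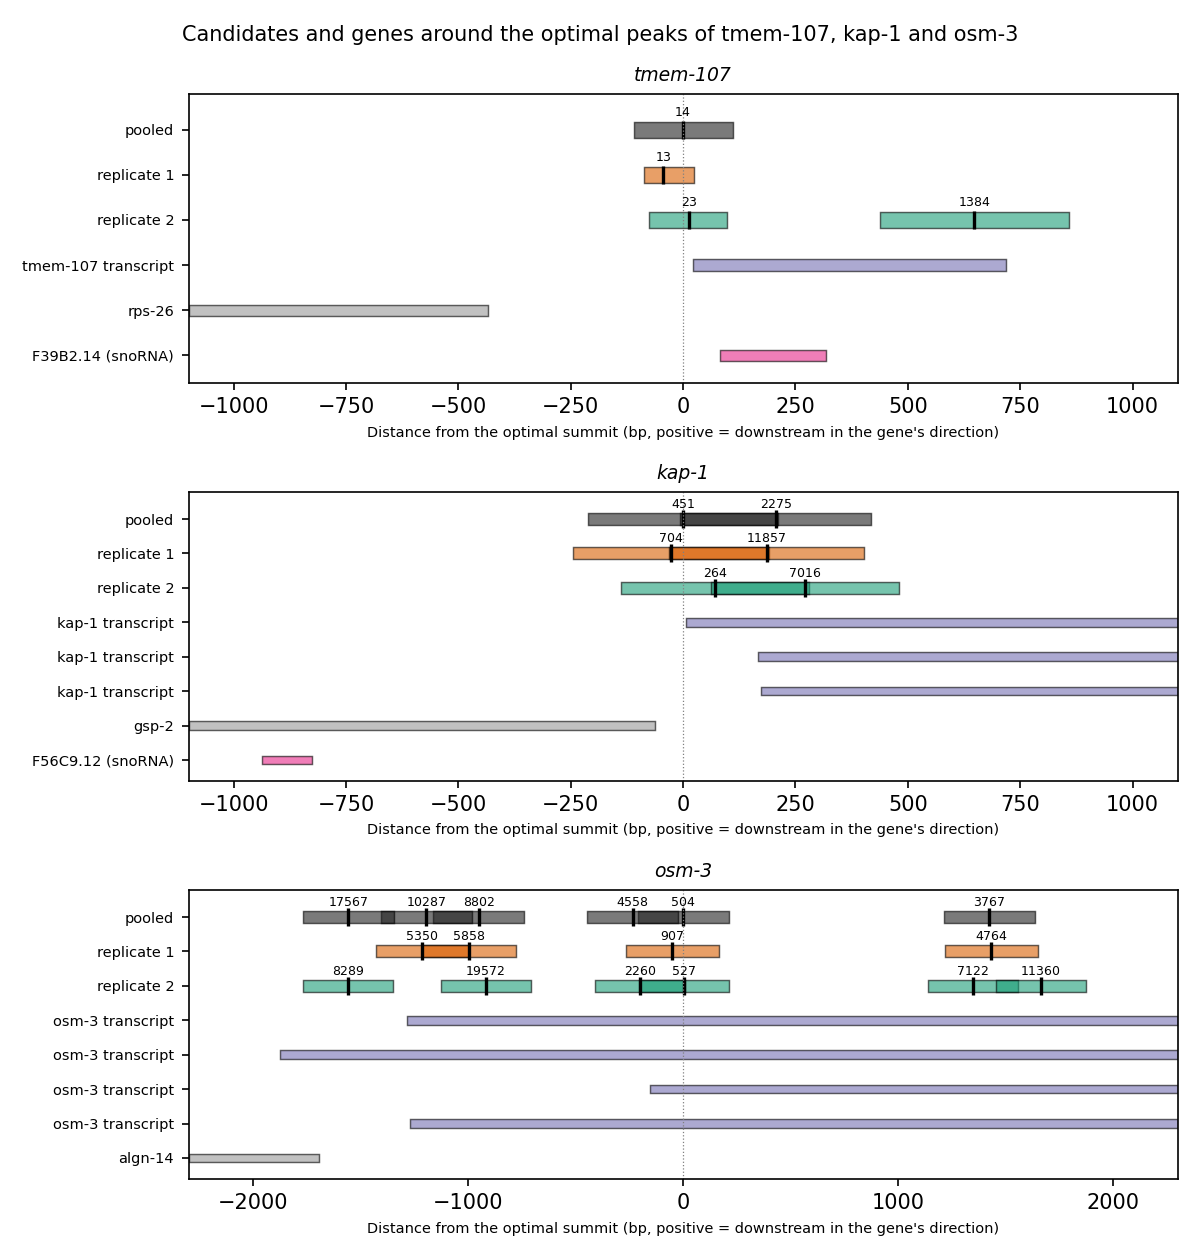
Candidates (bars, with summits as black ticks and the rank above each) around the optimal summits of tmem-107, kap-1 and osm-3, with transcripts of the gene, the upstream coding neighbour and any snoRNA gene within 2000 bp. The horizontal axis is the distance from the optimal summit in bp, and overlaps between candidates appear darker. The summits of the strongest candidates of the 3 lists lie within 58 bp of each other at tmem-107, 97 bp at kap-1 and 52 bp at osm-3.

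The 2 genes of the motor subunits of kinesin-II had no such peak. No summit in any list lay in the promoter window of klp-11 or inside the gene (chromosome IV, 8756735 to 8762066). The nearest summit to one of its starts was 11652 bp away in the pooled list, 8147 bp in replicate 1 and 6221 bp in replicate 2. For klp-20 (chromosome III, 209992 to 230450) the promoter window held 1 candidate, in replicate 1, with a signal of 23.0 and rank 12006, 842 bp upstream. That summit lay in an intron of F40G9.17, a gene that overlaps the 5' end of klp-20. Inside klp-20, which is 20459 bp long, there were 3 pooled candidates, all in introns and at rank 27453 or lower. Replicate 1 had 1 candidate inside the gene, at rank 24688, and replicate 2 had 6, the strongest at ranks 9756 (in an intron), 12441 (in the 3' UTR of a pair of transcripts) and 14556 (in a coding exon). The last of these lay 51 bp upstream of the noncoding RNA gene Y50D7A.15, and the one at rank 22630, also in a coding exon, lay 319 bp upstream of it. Of the genes of the 3 subunits of this motor, kap-1 alone was on the reproducible list. It was chosen with that peak known, and only 1.48% of all protein-coding genes had an optimal promoter summit. The contrast is therefore not evidence about the subunits.

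Among transition zone genes, tmem-107 stood far above the rest. It encodes a small membrane protein of the MKS module and lies on chromosome I (14758776 to 14759473, minus strand). Its optimal peak (14759383 to 14759604) had a pooled signal of 220.4 and rank 14. The signal and rank were 130.7 and 13 in replicate 1, and 92.5 and 23 in replicate 2. All 3 lists placed the peak among their 25 strongest. The pooled summit was 22 bp upstream of the start, and the replicate summits were 66 bp and 8 bp upstream.

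The peak is shared with other genes. The same summit lay 435 bp upstream of rps-26, a ribosomal protein gene on the opposite strand. It also lay 83 bp upstream of the 5' end of F39B2.14, a snoRNA gene (14759178 to 14759412, minus strand) that lies inside tmem-107. The start of tmem-107 was thus the nearest of the 3, and the optimal interval overlaps the first bases of both tmem-107 and F39B2.14. In replicate 1 the summit was 127 bp upstream of F39B2.14 and in replicate 2 it was 69 bp. The gene of this peak cannot be told from the lists, and the part of the snoRNA gene in it was not tested.

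A shared or noncoding neighbour was not rare among optimal promoter peaks. Of the 243 optimal peaks with a summit in a protein-coding promoter window, 57 (23.5%) lay in the windows of more than 1 such gene. A tRNA, snoRNA or snRNA gene lay within 500 bp of 53 (21.8%). Without peaks near these noncoding classes, tmem-107 left the count, while kap-1 and osm-3 stayed on it. In replicate 2 a further candidate, at rank 1384, lay in a coding exon of tmem-107 626 bp from its start, within 500 bp of F39B2.14. The pooled list and replicate 1 had no summit inside tmem-107, and summits beyond its 3' end were not looked up.

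The other 5 transition zone genes had no optimal peak, and no candidate in their promoter windows or inside them ranked higher than 4209. The B9 domain gene mksr-2 (chromosome IV, 2304292 to 2306547) had a pooled candidate 810 bp upstream of its start, with a signal of 35.4 and rank 12058. It ranked 8765 in replicate 2, and replicate 1 had none in the window. That interval lies in the 1267 bp between mksr-2 and its upstream neighbour vha-11, which encodes a subunit of the vacuolar ATPase. Inside mksr-2 the pooled candidates ranked 16563 and 22566, both in an intron. Replicate 2 had candidates at ranks 4209 and 24398, also in an intron.

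Another B9 domain gene, mksr-1 (chromosome X, 1066606 to 1069129), had 1 promoter candidate, in replicate 2, at rank 23010. Just beyond the window, 1420 bp upstream, lay a pooled candidate of rank 5331, with one of replicate 1 at rank 4692 and 1376 bp upstream. The third B9 gene, mks-1 (chromosome III, 3186280 to 3191307), had no promoter candidate. Inside it, 2 pooled candidates ranked 22280 and 23258, both in coding exons. Replicate 1 had candidates at ranks 18508 and 25497, the first in an intron and 28 bp upstream of the pseudogene WBGene00023333. Replicate 2 had 3, the strongest at rank 10724 in a coding exon.

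For mks-3, which encodes a membrane protein of the MKS module (chromosome II, 7580144 to 7583655), the candidate lists gave 1 summit, in an intron in replicate 2 at rank 7156. For mks-6 (chromosome I, 7160936 to 7166523) they gave 1 summit, in replicate 1 at rank 6213. This lay in a coding exon 227 bp downstream of the start, 27 bp beyond the promoter window. The gene xpa-1 ends 18 bp before mks-6 on the same strand, and whether they are transcribed together was not checked. In the pooled list neither mks-3 nor mks-6 had a summit in the promoter window or inside the gene.

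**Figure D2:**
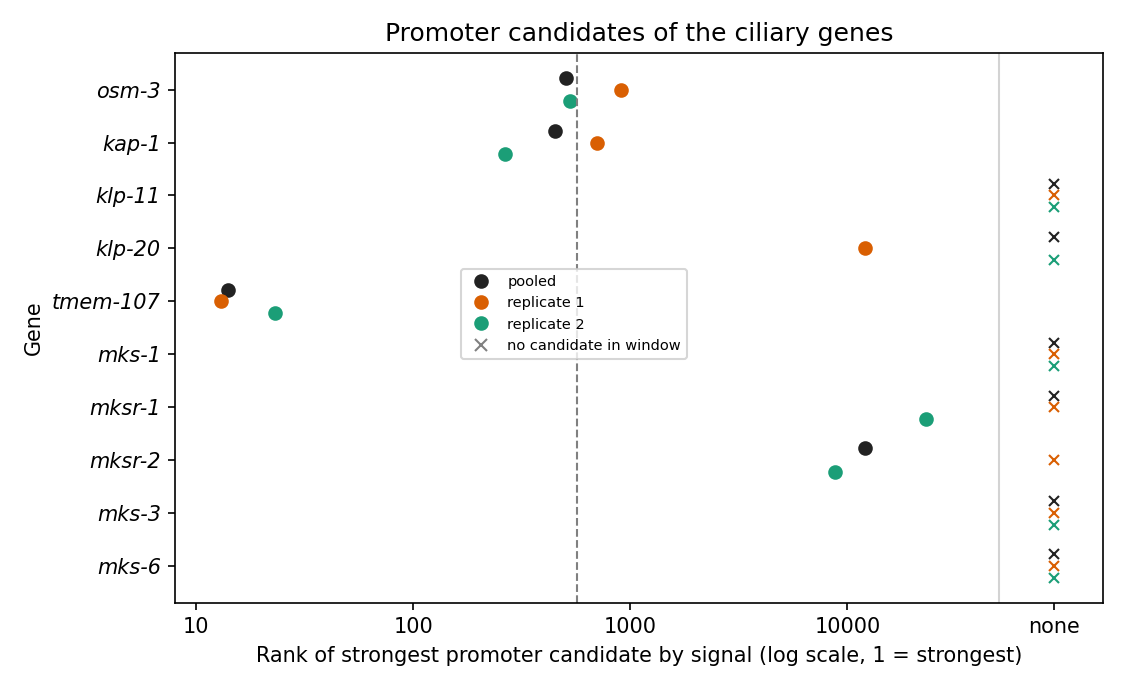
Rank by signal of the strongest candidate in the promoter window of each gene, on a log axis, in the pooled list (black), replicate 1 (orange) and replicate 2 (green), with crosses where the window held none. The dashed line marks the last rank of the optimal list. Ranks of tmem-107 lie between 13 and 23 and those of kap-1 and osm-3 between 264 and 907, while the others are at 8765 or lower or absent.

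Counting candidates of any strength, 4 of the 10 genes had a pooled summit in the promoter window, against 36.0% of all protein-coding genes. In both replicates 3 had one, against 21.7% of all protein-coding genes. Inside the gene 5 of 10 had a pooled summit, against 49.8% of all. These 10 genes include 3 that were chosen for strong peaks, so the shares say nothing about the set. For 4 of the 10 (klp-11, mks-1, mks-3 and mks-6) no candidate list had a promoter summit, and klp-11 alone had none inside the gene either. The matching shares over all protein-coding genes were not computed, so these counts do not set the genes apart.

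**Figure D3:**
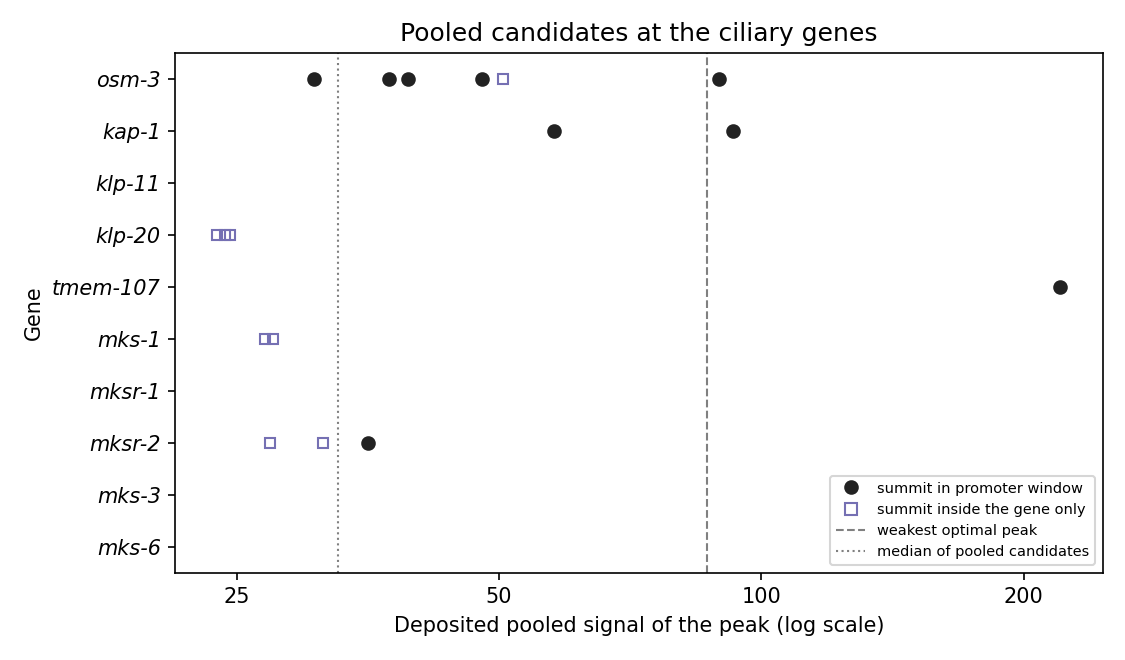
Deposited signal, on a log axis, of every pooled candidate at the 10 genes, with filled circles for summits in a promoter window and open squares for summits inside the gene only. Vertical lines mark the weakest optimal peak (86.53) and the median of all pooled candidates (32.6). The next signal below the optimal line is 57.8, the second candidate of kap-1.

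The replicates did not support the 3 peaks equally. As many of the strongest candidates of replicate 2 as the optimal list has peaks gave the same 3 genes, and as many of replicate 1 gave tmem-107 alone, since kap-1 and osm-3 ranked 704 and 907 there. Of the optimal peaks, 419 overlapped one of these strongest candidates of replicate 1 and 375 one of those of replicate 2, and 271 did so in both. A further 148 did so in replicate 1 only and 104 in replicate 2 only, as at kap-1 and osm-3. With the optimal peaks above the median signal of their list tmem-107 remained the only gene of the set.

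For each of these 3 genes the protein-coding gene with the most similar ranks over the pooled list and the 2 replicates was looked up among 4016 genes with promoter candidates in all 3. For tmem-107 this was rps-26, by the same peak, and after it Y75B12B.11 (ranks 18, 17 and 26 in the pooled list, replicate 1 and replicate 2). For kap-1 it was cts-1, a citrate synthase gene (463, 926 and 298). For osm-3 it was Y25C1A.8 (520, 1002 and 588).

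A further 55 ciliary genes were examined, listed by complex. None had an optimal summit in the promoter window, against 1.48% of all protein-coding genes. That share is low, so the absence does not set these genes apart. Of the 55, 18 (32.7%) had a pooled candidate and 11 had candidates in both replicates. The corresponding shares of all protein-coding genes were 36.0% and 21.7%. The median rank of their strongest pooled promoter candidate was 11032.5 over the 18 genes, against 11928.5 over the 7186 protein-coding genes with one. By complex, a pooled candidate was present for 1 of 6 genes of intraflagellar transport complex A, 6 of 14 of complex B, 1 of 2 of the ciliary dynein, 3 of 8 of the BBSome, 3 of 12 other transition zone genes and 4 of 13 others.

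The strongest of these candidates was at ift-43, a gene of complex A (chromosome II, 5661008 to 5661431, signal 68.4, rank 1252). Its summit lay 434 bp upstream of ift-43 and also in a promoter window of mdt-26, a Mediator subunit gene. It ranked 702 in replicate 2, and replicate 1 had no candidate in the window of ift-43. After it came hyls-1, a centriole gene (rank 3563, a summit shared with hpo-9), arl-13, a gene of a ciliary GTPase (4090), jbts-14 of the transition zone (4472), bbs-5 of the BBSome (5040) and daf-19, the gene of the RFX factor itself (5334). No tRNA, snoRNA or snRNA gene lay within 500 bp of these 6 summits. The wider window of 2000 bp upstream to 500 bp downstream took in the optimal peak at rank 5, 1046 bp upstream of ift-43, which lies inside mdt-26.

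The X-box consensus is 14 bases long and was searched on both strands. Within the promoter window, 905 of 19973 genes on the chromosomes (4.53%) held a match. Of the 55 further ciliary genes 33 (60%) did, and of the 10 kinesin-2 and transition zone genes 3 did, namely tmem-107, mks-3 and mks-6. With 1 mismatch allowed the shares were 55% of all genes and 87.3% of the 55, and 6 of the 10, which adds mksr-1, mksr-2 and osm-3. None of the 4 kinesin-2 genes had a match without a mismatch. A match in these windows is a string of letters and not a measured binding site.

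The matches at mks-3, mksr-2 and mksr-1 are shown as examples of matches next to the start of genes without an optimal peak. A match at mks-6 lies next to its start too. Each is written in the direction of the gene, with bases 7 to 10 of the consensus in capitals. That of mks-3 (chrII:7583703-7583716, minus strand) begins 61 bp upstream of the start and has no mismatch. Those of mksr-2 (chrIV:2306593-2306606, minus strand) and mksr-1 (chrX:1069104-1069117, minus strand) have 1 mismatch and begin 59 bp upstream and 12 bp downstream of the start.
mks-3: atcaccATGAcaac
mksr-2: gttgccGTGGcaac
mksr-1: gttcccTTGGcaac

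The 10 genes had 8 matches in all, 3 without a mismatch and 5 with 1. None lay inside an optimal peak, 3 lay inside a pooled candidate, and 4 lay inside a candidate of at least 1 list. At tmem-107 the match lay inside the gene, within F39B2.14, 187 bp from the optimal summit and outside the optimal interval, and it was outside the intervals of both replicates too. At mks-6 the match lay 9 bp downstream of the start, at the edge of the replicate 1 candidate and inside it, 212 bp from the summit. At mks-3 the nearest pooled summit was 4929 bp away. With 1 mismatch, both matches of osm-3 lay inside pooled candidates, at ranks 10287 and 17567, and a second match of mksr-2 lay inside its pooled promoter candidate at rank 12058. Among all 65 ciliary genes, 36 had a match without a mismatch and 10 of these (27.8%) had a pooled candidate in the promoter window, while 1 (2.78%), tmem-107, had an optimal summit. Of the 29 without a match, 12 (41.4%) had a pooled candidate and 2, kap-1 and osm-3, had an optimal summit. Over all protein-coding genes the shares were 36.0% and 1.48%, and the difference between genes with and without a match was not tested. The optimal summits here are those of tmem-107, kap-1 and osm-3, which were chosen with their peaks known. These shares are therefore not evidence about X-boxes and peaks.

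**Figure D4:**
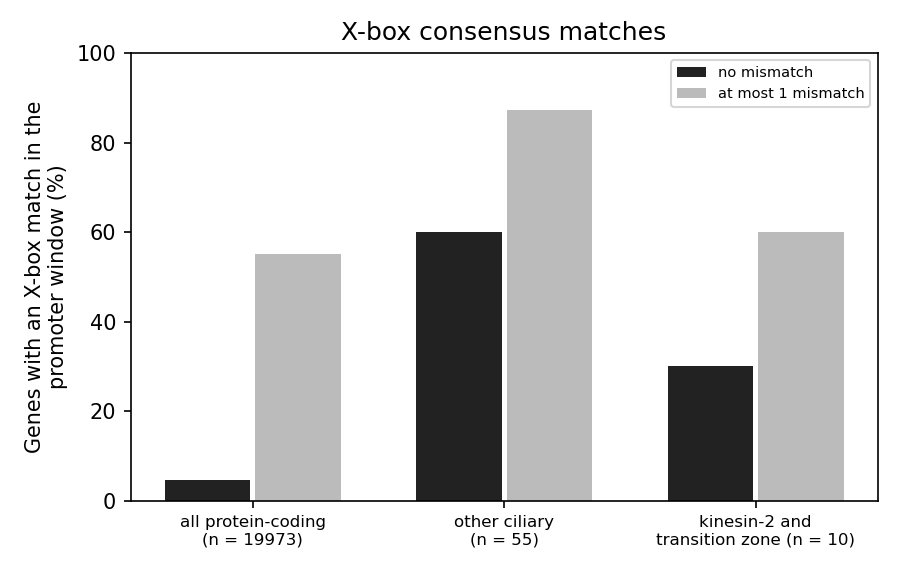
Share of genes, in percent, with a match to the X-box consensus between 1000 bp upstream and 200 bp downstream of a start, without a mismatch (black) and with at most 1 (grey). The shares without a mismatch are 4.53% of all protein-coding genes, 60% of 55 further ciliary genes and 3 of the 10 kinesin-2 and transition zone genes.

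The 101 bp around the optimal summits had a GC content of 51.5% at kap-1, 49.5% at tmem-107 and 42.6% at osm-3, against 46.9% ± 9.21 (mean and SD over all optimal peaks). The homeodomain core TAAT, on either strand, was present at 1 position in the kap-1 window and in neither of the others, and in the windows of 42% of optimal peaks. The osm-3 sequence printed above, inside the optimal peak but outside its 101 bp window, does contain TAAT. The longer word TAATTA, present in 1.41% of optimal windows, was in none of the 3. GTTGCC, the opening letters of many X-boxes, was in none of the 3 and in 4.77% of optimal windows.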

How the data were processed

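Peaks of each replicate and of the pooled alignments were called by the authors against 1 control file, and the optimal list was derived from these lists by the irreproducible discovery rate, per the notes deposited with the files. Neither aligner nor caller is named in the sources used here. The signal is a value the authors deposited for each peak, and it served to rank peaks within a list. The lists in ce10 were not used here.

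Genes and starts came from Ensembl release 115 (WBcel235, the coordinates of ce11), and the X-box was searched in the RefSeq genome. Coordinates are 1-based. With no table of promoter sequences, windows were cut from the genome, the narrower one from 250 bp upstream to 50 bp downstream. Where a gene had several candidates in its window the strongest was taken. No test was made, since there is 1 group and peaks chose the genes. The window search was tested on simulated data. The genes and lists were chosen with earlier results of these data known. All 10 genes are named, and of the 55 others any with an optimal summit and the 6 with the highest pooled signal. The alternatives were other windows, stricter lists and single replicates. The X-box search with 1 mismatch was chosen after seeing the data. Python 3.11.15, numpy 2.4.6, pandas 2.3.3, biopython 1.88 and matplotlib 3.10.9 were used.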

Additional observations from a re-analysis of the deposited data

How the results depend on the processing

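Of 42 alternative values, 33 stayed within 1.5 times the value reported and 9 did not. The count of 3 genes with an optimal promoter summit was 1 with the optimal peaks above the median signal of their list, and between 1 (without replicate 2) and 3 (without replicate 1) with the strongest candidates of a single replicate. It was 2 in the narrower window (500 bp upstream, 100 bp downstream) and with the 5' end of the gene as the only start, both without osm-3, and 2, without tmem-107, once peaks near short noncoding genes were left out. The count with candidates in both replicates rose from 3 to 6 in the wider window (2000 bp upstream, 500 bp downstream), which added klp-20, mksr-1 and mksr-2. A gene counted here if each replicate had a candidate in its windows, and these need not be at the same site. At mksr-1 the nearest summit was 1376 bp upstream in replicate 1 and 751 bp upstream in replicate 2. The matching share over all protein-coding genes was not computed for this window. The 55 further ciliary genes gave 1 gene, ift-43, in the wider window and where any overlap of a peak counted. The share of all protein-coding genes with an optimal summit was 2.29% in the wider window, 0.946% in the narrower one and 0.786% with the peaks above the median signal. The count of X-box matches rose from 3 to 6 with 1 mismatch allowed, a search chosen after seeing the data. The other windows and the stricter lists take in more or fewer peaks or bases by construction. The single-replicate settings keep the number of peaks of the optimal list and change the ranking. What caused each change was not tested. Depth is unknown, and with 2 replicates called against 1 control the error of a rank cannot be given.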

Other observations

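Other kinesin genes, a list made by name after the peaks were seen, gave 1 optimal promoter summit among 18 genes (5.56%, against 1.48% of all protein-coding genes). This was klc-1, which encodes a kinesin-1 light chain, with rank 305 in the pooled list, 445 in replicate 1 and 239 in replicate 2. A pooled promoter candidate was present for 10 of the 18 (55.6%, against 36.0%), and neither difference was tested. After klc-1 the strongest were klp-7, a microtubule depolymerase gene (rank 2808, with none in replicate 2), and zen-4, a kinesin gene needed for cytokinesis (rank 4246). The genes klp-3, klp-4, klp-6, klp-12, klp-15, unc-104 and unc-116 had no promoter candidate in any list. Of these, klp-6 is also among the 55 further ciliary genes. The share of all protein-coding genes without a candidate in any list was not computed, so this absence does not set them apart.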
